A study of Mus musculus with 6 samples.

Results

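The early growth response (EGR) transcription factors Egr1, Egr2, Egr3 and Egr4 and their NAB corepressors Nab1 and Nab2 were examined in fibrotic mouse kidneys. The genes were taken by symbol from the array annotation, and a row of the array counted only where the annotation gave that 1 symbol. All 6 genes were found among 20416 measured genes. They were covered by 34 exon rows out of 241576 rows on the array: 3 for Egr1, 5 for Egr2, 4 for Egr3, 2 for Egr4, 9 for Nab1 and 11 for Nab2. An exon row is 1 probe set, and the gene summary joins the rows of a gene by median polish, in log2 intensity.

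Kidney RNA was hybridised to 6 Affymetrix arrays in 2 groups of 3. The B6-TGFbeta group (replicates 1, 2 and 3) is labelled B6-TGFß (WT), and the CBAxB6-TGFbeta group (replicates 4, 5 and 6) is labelled CBAxB6-TGFß (KO). Both groups carry the disease state of induced renal fibrosis and TGFbeta in their names, and no array comes from a mouse without it. The labels name no knocked-out gene, do not say how TGF-β1 was raised or from which promoter, and give no age, beyond stating that littermate cohorts were matched for age and sex. Effects of strain background, of whatever WT and KO stand for, and of the reaction to TGF-β1 thus cannot be told apart. The series title links fibrosis sensitivity to Egr2, and may itself rest on these arrays, so the Egr2 result is no independent evidence for it. Nothing in the labels says that each array is a separate animal, and if they are not, the p-values measure only the spread between these samples.

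EGR proteins are zinc finger factors of the immediate early class: growth factors, injury and stress switch them on within minutes through the ERK kinases and serum response factor (SRF), with no new protein needed. EGR1, EGR2 and EGR3 bind NAB1 and NAB2, which recruit a histone deacetylase complex and restrain them, and Nab2 is itself a target gene of EGR factors, which makes a feedback loop. EGR4 lacks the domain that NAB proteins bind. EGR1 is known as an early injury gene of kidney tubules, and EGR2 as a regulator of myelin, macrophage and T cell genes that TGF-β can also induce in fibroblasts.

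Promoter windows from RefSeq (build GRCm38.p6) are shown because they hold sites for the factors of this circuit. The table held 8 windows for 4 of the 6 genes: 5 for Egr2 and 1 each for Egr4, Nab1 and Nab2. Each window runs from 250 bases before a transcript start to 50 bases after it. The search covered the CArG box, which SRF binds, and the EGR sites GCGTGGGCG and GCGGGGGCG, on both strands. The CArG box was taken as CC, 6 bases of A or T, and GG, and only exact matches counted. A CArG box stood in 4 of the 5 Egr2 windows, against 1.63% of all 32851 windows of the same length. The windows for Egr2 starts at 67537869, 67537870 and 67537930 overlap and share 1 CArG box, and the window for the start at 67537566 holds another. The bases before these starts are printed with the CArG box in capitals, at positions -72 to -63 relative to the start in both.
Egr2, chr10:67537619-67537868, plus strand: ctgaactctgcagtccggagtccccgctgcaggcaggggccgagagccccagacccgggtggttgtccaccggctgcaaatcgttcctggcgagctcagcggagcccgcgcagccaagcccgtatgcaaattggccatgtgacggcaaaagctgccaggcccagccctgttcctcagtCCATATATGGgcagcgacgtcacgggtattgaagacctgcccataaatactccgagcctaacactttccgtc
Egr2, chr10:67537316-67537565, plus strand: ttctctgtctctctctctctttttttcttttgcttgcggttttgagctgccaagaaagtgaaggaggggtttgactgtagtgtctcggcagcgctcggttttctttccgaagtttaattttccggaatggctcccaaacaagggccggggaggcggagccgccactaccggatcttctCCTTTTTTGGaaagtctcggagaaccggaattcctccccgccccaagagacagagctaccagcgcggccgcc

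The Nab1 window held EGR sites and no CArG box. GCGTGGGCG occurred at positions -141 to -133 on the opposite strand and -109 to -101 on the gene's strand, and GCGGGGGCG at -38 to -30. Of all windows, 0.612% held the first form and 2.91% the second. These sites are in capitals in the Nab1 sequence. No exact match to any of these forms was found in the Egr4 window, the Nab2 window or the Egr2 window for the start at 67535499. Near matches were not searched for, so this does not show that these windows lack sites. A match of letters is a description and not a measured binding site.
Nab1, chr1:52500449-52500698, minus strand: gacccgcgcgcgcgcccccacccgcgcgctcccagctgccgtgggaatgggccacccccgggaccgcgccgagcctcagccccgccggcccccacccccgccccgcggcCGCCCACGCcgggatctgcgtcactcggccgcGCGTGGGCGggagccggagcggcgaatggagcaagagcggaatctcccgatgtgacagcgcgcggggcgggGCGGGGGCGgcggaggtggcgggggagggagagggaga

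Several arrays held transcripts of neighbouring tissues. B6-TGFbeta replicate 2 had the brown fat gene Ucp1 at 10.93 (log2 intensity), against 5.13 to 6.22 on the other arrays. The adrenal gene Star stood at 8.90 and 10.74 in B6-TGFbeta replicates 1 and 2, against 5.86 to 6.46 elsewhere, and the liver gene Ahsg at 8.27 in CBAxB6-TGFbeta replicate 6, against 5.36 to 6.92. Kidney identity was clear on every array, with the proximal tubule phosphate transporter Slc34a1 at 12.06 to 12.29 in B6-TGFbeta and 10.03 to 10.48 in CBAxB6-TGFbeta. Of 13 kidney markers, 10 were lower in CBAxB6-TGFbeta, where 4.57% of all genes were called lower. With each array left out in turn, Slc34a1 passed in 6 fits, Slc5a2 in 2, and Aqp1, Lrp2 and Nphs1 in 0. Cdh16, Cubn, Kap, Slc12a1 and Slc12a3 each passed in 1.

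Egr2 was the 1 gene of the 6 that passed the test, and it rose in CBAxB6-TGFbeta kidneys. Its gene summary was 7.57, 7.78 and 7.71 in B6-TGFbeta replicates 1, 2 and 3, and 10.72, 9.86 and 9.52 in CBAxB6-TGFbeta replicates 4, 5 and 6. The groups were far apart, with replicate 4 the highest. The means were 7.68 ± 0.11 and 10.03 ± 0.62 (SD, n = 3 each). The log2 difference was 2.35 (SE 0.25, 95% interval 1.77 to 2.92), or 5.09-fold (3.42 to 7.57), with an adjusted p of 0.00108 in limma with Benjamini-Hochberg adjustment over all genes. Egr2 ranked 112 among all genes by p, and 99.9% of genes had a smaller or equal signed difference. Over all genes 7.65% passed in either direction, 3.08% as higher and 4.57% as lower, so 1 of 6 members is too few to read against that background.

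The Egr2 difference had the same sign under every alternative run, and its call did not hold under all of them. Leaving out replicates 1, 2 and 3 of B6-TGFbeta in turn gave log2 differences of 2.29, 2.39 and 2.34 with adjusted p of 0.106, 0.0801 and 0.0882 in limma. Leaving out CBAxB6-TGFbeta replicate 5 gave 2.44 (adjusted p 0.0792). Without replicate 4, the highest array, the difference was 1.97 and passed (adjusted p 0.0254). With B6-TGFbeta replicate 3, where Ucp1 (5.13) and Star (6.46) were low, as the only array of its group, the difference was 2.38. The adjusted p of 0.107 there assumes that the lone array varies like the CBAxB6-TGFbeta arrays, the only ones left to give the spread, so it says little about the call.

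**Figure D1:**
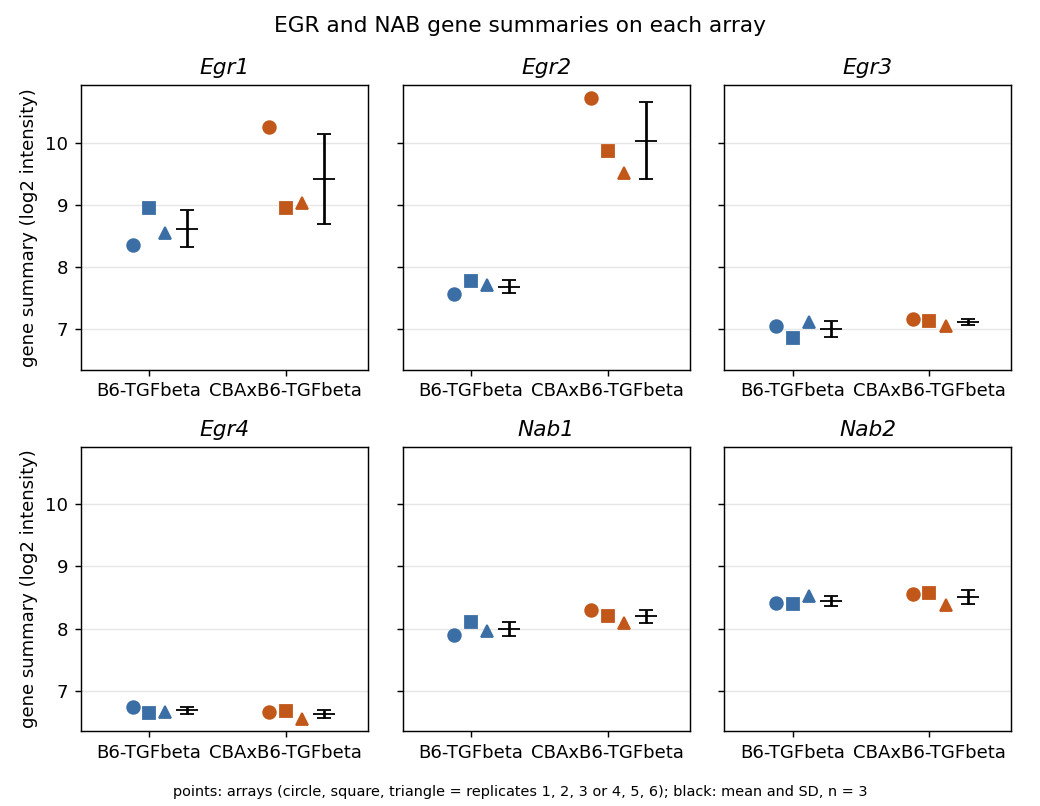
Gene summaries (log2 intensity) of the 6 genes on each array, with blue points for B6-TGFbeta, orange points for CBAxB6-TGFbeta, and the mean and SD of 3 arrays in black. Egr2 lies at 7.57 to 7.78 in B6-TGFbeta and at 9.52 to 10.72 in CBAxB6-TGFbeta, Egr1 is highest in replicate 4 at 10.25, and the other 4 genes overlap between groups.

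All 5 Egr2 rows were higher in every CBAxB6-TGFbeta array than in any B6-TGFbeta array. The second row (probe set 10363737) read 6.62, 7.61 and 7.53 in B6-TGFbeta and 11.03, 9.69 and 9.91 in CBAxB6-TGFbeta (log2 intensity), a difference of 2.96 (SE 0.42). The third row (probe set 10363738) read 7.63, 8.41 and 8.62 against 11.64, 10.83 and 10.68, a difference of 2.83 (SE 0.35). The fifth row (probe set 10363740) read 6.94, 7.24 and 7.05 against 10.03, 9.19 and 8.86, a difference of 2.29 (SE 0.31). These 3 rows passed in the limma fit over all rows, with adjusted p of 0.0442, 0.0353 and 0.0397, where 0.535% of all rows passed. The fourth row (probe set 10363739), at 7.57, 7.73 and 7.72 against 11.10, 10.03 and 9.46, had a difference of 2.53 (SE 0.39, adjusted p 0.0538).

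The first Egr2 row (probe set 10363736) had the smallest difference of the 5. It read 9.02, 9.19 and 9.58 in B6-TGFbeta and 10.91, 10.24 and 9.93 in CBAxB6-TGFbeta. Its difference was 1.10 (SE 0.29), with an adjusted p of 0.169 over all rows. When each gene was represented by its brightest row, this row stood for Egr2 and the call was lost (adjusted p 0.0667). Whether the first row differs from the other 4 was not tested, and the file gives no exon positions.

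**Figure D2:**
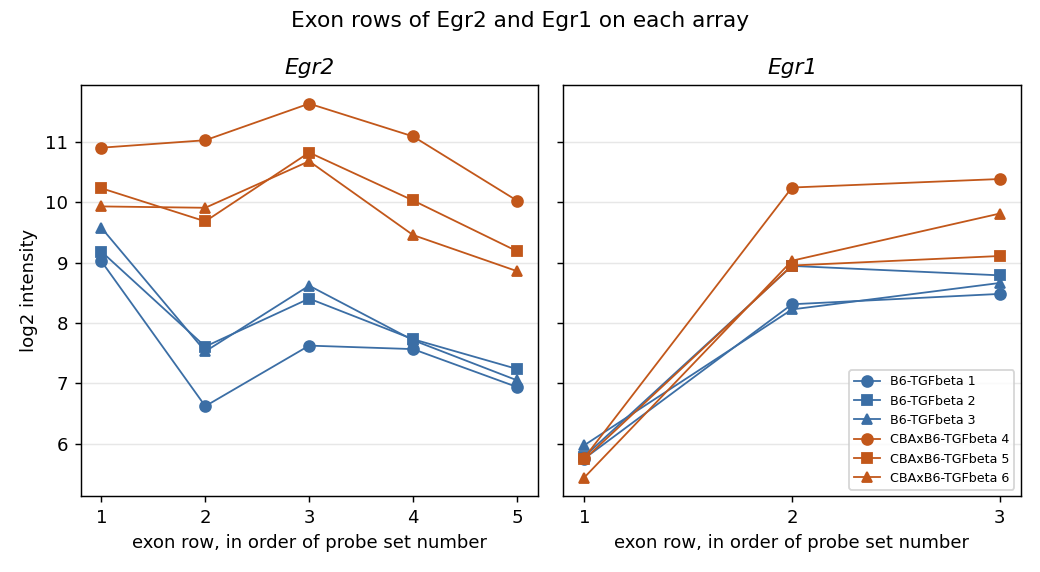
Log2 intensity of every exon row of Egr2 (left) and Egr1 (right), in order of probe set number, with 1 line per array. The 3 CBAxB6-TGFbeta lines (orange) lie above the B6-TGFbeta lines (blue) in all 5 Egr2 rows, closest in the first row, while in Egr1 replicate 4 stands highest in the last 2 rows, at 10.25 and 10.39, and the groups overlap in the first row.

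Egr1, the best-known immediate early member, did not pass. Its gene summary was 8.36, 8.95 and 8.54 in B6-TGFbeta and 10.25, 8.95 and 9.03 in CBAxB6-TGFbeta (log2 intensity). The groups just failed to overlap: B6-TGFbeta replicate 2 stood at 8.948 and CBAxB6-TGFbeta replicate 5 at 8.954. Groups lay apart in 26.8% of all genes, in 13.5% with CBAxB6-TGFbeta higher, and in 2 of the 6 members, Egr1 and Egr2, both higher. The Egr1 means were 8.62 ± 0.30 and 9.41 ± 0.73 (SD, n = 3 each), with a log2 difference of 0.80 (SE 0.31, 95% interval 0.09 to 1.498, adjusted p 0.174 in limma). Much of it rested on replicate 4: without that array the difference was 0.19 (SE 0.11, adjusted p 0.394). The gene summary was recomputed for that fit, so the drop does not measure replicate 4 alone. In the summaries from all 6 arrays, replicates 5 and 6 stood at 8.95 and 9.03 against the B6-TGFbeta mean of 8.62.

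The 3 Egr1 rows did not behave alike. The second row (probe set 10454784) read 8.31, 8.95 and 8.23 in B6-TGFbeta and 10.25, 8.95 and 9.03 in CBAxB6-TGFbeta, a difference of 0.92 (SE 0.39). The third row (probe set 10454785) read 8.48, 8.79 and 8.66 against 10.39, 9.11 and 9.82, a difference of 1.13 (SE 0.32, adjusted p 0.194 over all rows). The first row (probe set 10454783) was dim, at 5.75, 5.78 and 5.97 against 5.76, 5.74 and 5.44, with a difference of -0.19 (SE 0.18). Its mean was at percentile 24 of all rows, and leaving out the dimmer 50% of rows of each gene gave an Egr1 difference of 1.02 (adjusted p 0.0717).

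Egr3, which shares its DNA site with Egr1 and Egr2, had gene summaries of 7.05, 6.86 and 7.11 in B6-TGFbeta and 7.16, 7.14 and 7.06 in CBAxB6-TGFbeta. The groups overlapped, and the log2 difference was 0.11 (SE 0.10, 95% interval -0.12 to 0.34, adjusted p 0.605 in limma). Its brightest row (probe set 10416253) read 8.77, 8.92 and 8.82 against 8.57, 8.91 and 8.36, a difference of -0.22 (SE 0.20), and the other 3 rows had differences of 0.27, 0.04 and 0.14. The sign of the Egr3 difference thus varied between rows, none of which passed, so no direction was established. Egr4, the member that NAB proteins do not bind, had summaries of 6.75, 6.64 and 6.66 in B6-TGFbeta and 6.66, 6.68 and 6.55 in CBAxB6-TGFbeta, a difference of -0.05 (SE 0.09, 95% interval -0.26 to 0.16, adjusted p 0.807). Its mean level was at percentile 43.8 of all genes, on 2 rows with differences of 0.06 and -0.17.

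The corepressors overlapped between the groups. Nab1 had summaries of 7.90, 8.11 and 7.97 in B6-TGFbeta and 8.30, 8.21 and 8.08 in CBAxB6-TGFbeta. The difference was 0.20 (SE 0.10, 95% interval -0.03 to 0.44, adjusted p 0.306 in limma), and 8 of its 9 rows had positive differences, from -0.05 to 0.46. The brightest Nab1 row (probe set 10354495) lay apart, at 11.60, 11.76 and 11.72 against 11.84, 12.07 and 12.20, without passing (0.34, SE 0.17, adjusted p 0.437 over all rows). Nab2, the corepressor known as an EGR target, had summaries of 8.405, 8.396 and 8.53 against 8.56, 8.58 and 8.38, a difference of 0.06 (SE 0.10, 95% interval -0.17 to 0.29, adjusted p 0.791). Of its 11 rows 7 had positive and 4 negative differences. The 1 row of Nab2 whose groups lay apart (probe set 10373322) read 7.60, 7.96 and 7.68 against 8.15, 8.33 and 8.21 (0.48, SE 0.18, adjusted p 0.285 over all rows). The 95% intervals of the gene summaries ran from 0.892-fold to 1.22-fold for Nab2 and from 0.978-fold to 1.36-fold for Nab1. Single rows lay outside them, such as Nab2 probe set 10373322 at 1.40-fold and Nab1 probe set 10354498 at 1.38-fold.

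**Figure D3:**
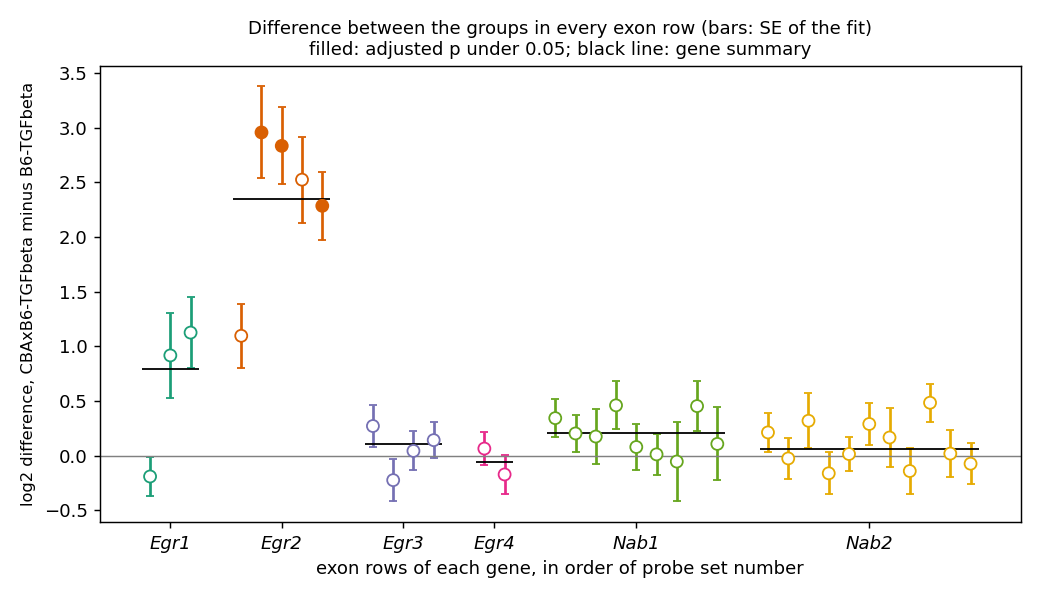
Log2 difference between the groups (CBAxB6-TGFbeta minus B6-TGFbeta) in each of the 34 exon rows, with the SE of the fit as bars, filled points for adjusted p under 0.05 and a black line at the gene summary. The 5 Egr2 rows run from 1.10 to 2.96 and the rows of Egr3, Egr4, Nab1 and Nab2 lie between -0.22 and 0.48.

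Over the 34 rows, 3 passed, all in Egr2, and 10 lay apart between groups, all with CBAxB6-TGFbeta higher. Over all rows, 0.236% passed as higher, 20.4% lay apart and 9.91% lay apart as higher. Rows of 1 gene share their transcript, and 5 of the 10 rows are those of Egr2.

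The Egr2 difference between the groups was larger than that of each relative when rows were summarised per gene. The within-array difference of Egr2 minus Egr1 lay at -1.17 to -0.79 in B6-TGFbeta and 0.47 to 0.90 in CBAxB6-TGFbeta, a change of 1.55 (SE 0.19, log2 scale). The change of Egr2 exceeded that of Egr3 by 2.24 (SE 0.35), of Egr4 by 2.40 (SE 0.35), of Nab1 by 2.14 (SE 0.30) and of Nab2 by 2.28 (SE 0.33). The groups lay apart in all 5 pairs, and each exact permutation test (two-sided, over 20 splits) gave p = 0.1, also after adjustment over the 5 pairs, which is the smallest p that 3 against 3 arrays allow. All 5 pairs share Egr2, whose own groups lay far apart, so they are not 5 separate results. How many of all genes would lie apart when paired with Egr2 was not computed. On brightest rows Egr2 exceeded Egr3, Egr4, Nab1 and Nab2 by 1.32, 1.27, 0.75 and 1.26, and the value for Egr1 was -0.029, since the brightest rows of Egr1 and Egr2 changed by 1.13 and 1.10.

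**Figure D4:**
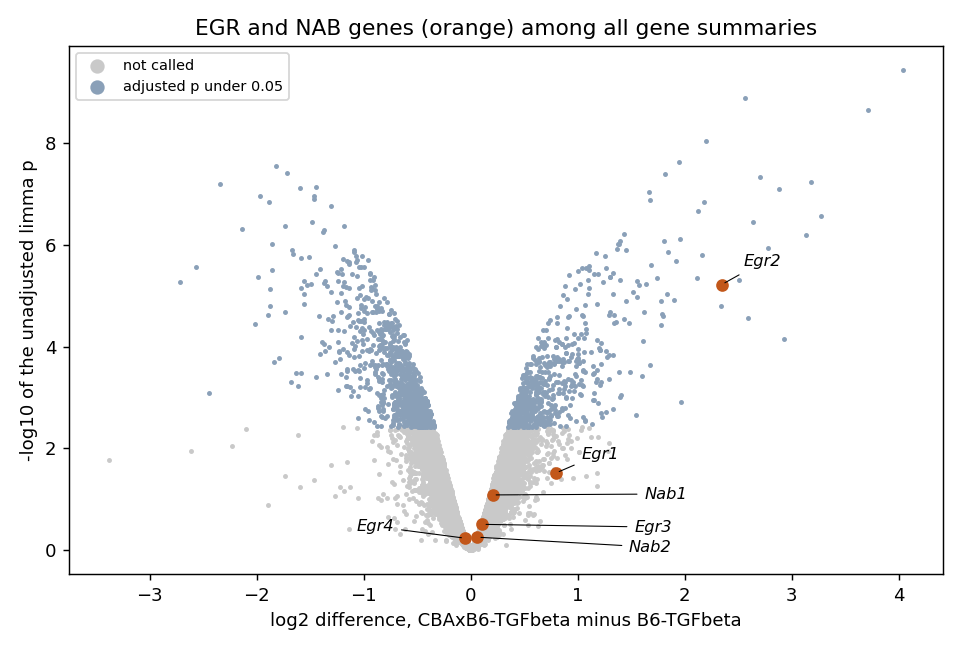
Each point is 1 of 20416 genes, with the log2 difference between the groups on the x axis and -log10 of the unadjusted limma p on the y axis. Egr2 at 2.35 lies among the genes with adjusted p under 0.05, Egr1 at 0.80 lies outside them, and the other 4 members sit between -0.05 and 0.20.

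Within the groups, Egr1 and Egr2 were both highest in CBAxB6-TGFbeta replicate 4 and both highest in replicate 2 among B6-TGFbeta arrays. After the group means were removed, replicate 4 stood at 0.84 in Egr1 and 0.69 in Egr2. Replicates 5 and 6 ordered oppositely, at -0.46 and -0.38 in Egr1 and -0.17 and -0.51 in Egr2. The correlation of these deviations between Egr1 and Egr2 over the 6 arrays was 0.921. It is a description only: both genes were read on the same arrays, and replicate 4 lay far from the rest. Nab1 stood at 0.78 with Egr1 and 0.77 with Egr2, and Nab2 at 0.25 with Egr1, 0.56 with Egr2 and 0.69 with Egr3. Egr3 and Egr4 stood at -0.08 and 0.02 with Egr1 and at 0.22 and 0.35 with Egr2. All pairs of members ran from -0.30, for Egr3 with Nab1, to 0.92.

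The genes most like Egr2 over the 6 arrays, among 2276 genes of above-median level with an SD of at least 0.25 and at least 3 rows, were Plac8 (Pearson r 0.997), the chemokine gene Cxcl16 (0.997), the hyaluronan receptor gene Cd44 (0.997), Rnf180 (0.995) and the monocyte chemoattractant gene Ccl2 (0.994). All 5 were called higher in CBAxB6-TGFbeta. They were picked for likeness to Egr2 over both groups, so these calls follow from the choice and add no evidence. Those most like Egr1 were the TGF-β ligand gene Tgfb3 (0.996), Gm9907 (0.985), the smooth muscle actin gene Actg2 (0.984), the transferrin gene Trf (0.982) and Arrb2 (0.979). None of these 5 passed, and their adjusted p ran from 0.0757 to 0.171 in limma. Likeness to Egr1 over both groups picked them, so this adds no evidence either. Once group means were removed, the nearest to Egr2 among 611 genes were Dbn1 (0.999), Akap12 (0.998), the transcription factor gene Runx1 (0.996), Rab31 (0.994) and Tspo (0.993), and the nearest to Egr1 were Ccl2 (0.996), S100a6 (0.995), Tgfb3 (0.993), Actg2 (0.990) and Sla (0.986). These are descriptions over 6 arrays.

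Of 40 measured genes that EGR factors are known to control in 1 or another tissue, 10 passed (25% called, against 7.65% of all genes), 8 of them higher and 2 lower (3.08% and 4.57% of all genes), with a median log2 difference of 0.33 against 0.02 over all genes. The list was drawn up with earlier results known and holds Timp1, the other gene of the title, so it is no independent evidence. The strongest were Timp1, the metalloproteinase inhibitor (2.88, SE 0.19), Ccl2 (2.51, SE 0.27), Cd44 (1.78, SE 0.21) and the cytokine Il6 (2.59, SE 0.34), all with groups apart. On brightest rows Ccl2 stood at 0.28 and did not pass. The lower genes were the vascular growth factor Vegfa (-0.61, SE 0.10) and its receptor Flt1 (-0.45, SE 0.11), both chosen after their values were seen. Without single arrays 0 to 5 of the 40 genes passed as higher, and under the other alternatives 0 (no moderation) to 14 (array weights).

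Of 41 other immediate early genes, 4 rose and 37 missed the threshold (9.76% called, all higher, against 3.08% of all genes called higher), with a median of 0.18 against 0.02 over all genes. The groups lay apart as higher in 14 of the 41, and in 13.5% of all genes. The 4 were the zinc finger gene Klf6 (1.00, SE 0.17), the NF-κB inhibitor Tnfaip3 (1.02, SE 0.21), the stress factor Atf3 (0.93, SE 0.21) and the small Maf factor Maff (0.56, SE 0.13). Without single arrays 0 to 3 passed as higher. Under the other alternatives the count was 9 with array weights, 7 with median centring or without the dimmer 50% of rows, 6 on brightest rows, and 0 without moderation.

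SRF and ERK pathway genes, ERK feedback inhibitors and NAB partners gave 0 or 1 call per list. Of 24 SRF and ERK pathway genes, 1 was higher, the Ras gene Nras (0.46, SE 0.10), and 23 did not pass (4.17% called, median -0.02). Among 21 ERK feedback inhibitors limma called 0, with 5 at an unadjusted p under 0.05, a level that 21.5% of all genes reached. The Sprouty genes Spry2 (0.55, SE 0.15, adjusted p 0.0614 in limma, groups apart) and Spry3 (0.55, SE 0.18, adjusted p 0.104, groups overlapping) had the smallest p. Of 20 NAB partners and EGR cofactors, the histone-binding gene Rbbp7 was higher (0.36, SE 0.09) and 19 did not pass (5% called, median -0.01). Over all genes 7.65% were called in either direction and 3.08% as higher. With 0 or 1 call each, these 3 lists are too small to read against either share.

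Myelin genes are the classic EGR2 targets of Schwann cells. Of 17 measured, 0 were called higher in limma, where 3.08% of all genes were, so that count is near the background. The 3 that were lower (17.6% called, against 4.57% of all genes called lower) were the gap junction gene Gjb1 (-0.59, SE 0.11), the fatty acid hydroxylase gene Fa2h (-0.57, SE 0.13) and Mal (-0.39, SE 0.10), which kidney epithelium also expresses. With each array left out in turn, 0 of the 17 passed. Of 7 measured peripheral nerve markers limma called 0, and 0 had an unadjusted p under 0.05. Their mean level was 6.31 to 6.39 in B6-TGFbeta and 6.34 to 6.37 in CBAxB6-TGFbeta, with Sox10 at 6.82 to 6.96 and 6.70 to 7.01. Of 23 T cell and macrophage genes tied to EGR2 and EGR3, 1 was higher, the dendritic cell and macrophage integrin Itgax (0.91, SE 0.15), and 22 did not pass (4.35% called, near the 3.08% of all genes called higher). Its brightest row gave -0.07.

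Most macrophage markers were higher in CBAxB6-TGFbeta, as Egr2 was. Of 15, 10 were higher, 1 (Mertk, -0.78, SE 0.09) was lower and 4 did not pass (73.3% called, against 7.65% of all genes), with a median of 1.05. With each array left out, 0 to 3 passed as higher. The mean level of the 15 markers was 7.25 to 7.50 in B6-TGFbeta and 8.13 to 8.55 in CBAxB6-TGFbeta, highest in replicate 4 as for Egr2. Replicates 5 and 6 stood close together in that level, at 8.13 and 8.19, and at 9.86 and 9.52 in Egr2. The scavenger receptor Msr1 rose by 2.19 (SE 0.15), the mannose receptor Mrc1 by 1.56 (SE 0.18) and the integrin Itgam by 1.62 (SE 0.20), while the lineage receptor Csf1r stood at 0.23 (SE 0.20, adjusted p 0.580 in limma). Beside the 3.08% of all genes called higher, 2 of 11 T cell markers (18.2%) and 2 of 10 fibroblast markers (20%) were. Of the T cell markers, Thy1, which fibroblasts share, and Cd2 (adjusted p 0.0496 in limma) were higher. With each array left out, 0 to 1 of the T cell markers passed as higher. The mean level of that list was 5.70 to 5.80 in B6-TGFbeta and 5.97 to 6.06 in CBAxB6-TGFbeta. The CD3 chain genes Cd3e, Cd3d and Cd3g stood at 0.01, 0.13 and 0.29 and did not pass. Of the fibroblast markers, Col3a1 and Lum were higher, and 0 to 2 passed as higher with each array left out. The mean level of the list was 9.15 to 9.35 in B6-TGFbeta and 9.54 to 9.67 in CBAxB6-TGFbeta. The part of these cells in the Egr2 difference was not tested. In whole kidney, fewer or more cells of a type and less or more RNA per cell cannot be told apart.

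**Figure D5:**
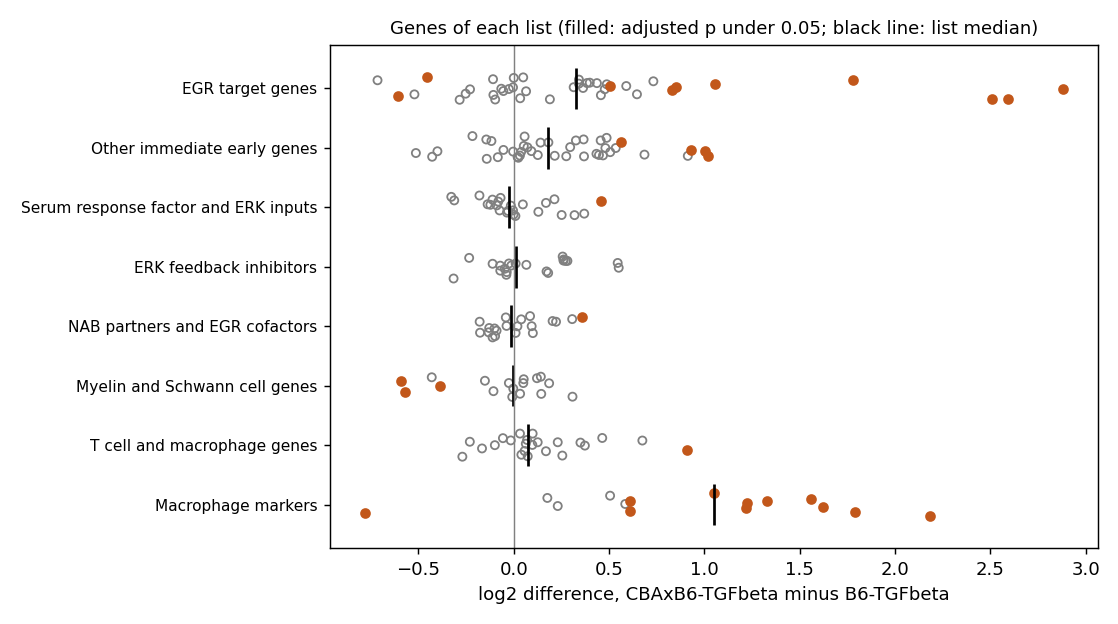
Log2 difference between the groups for each measured gene of 8 lists, 1 point per gene, filled where adjusted p was under 0.05, with a black line at the list median. EGR target genes reach 2.88 with a median of 0.33, macrophage markers have a median of 1.05, and the medians of the ERK, NAB partner and myelin lists lie between -0.02 and 0.01.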

How the data were processed

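The members and gene lists were chosen with earlier results of these data known. The deposited table holds log2 intensities, 1 row per probe set, for 6 arrays. RMA and Partek made them, per the submitters' processing notes, which give no version. Settings and genome build were not given in the sources used here. Medians of the arrays were 7.27 to 7.34. Rows with 1 symbol (212097) were combined per gene by Tukey's median polish, and 4475 rows with several symbols and 25004 with none were left out of gene summaries. limma (version 3.58.1, R 4.3.3) was fitted with 1 group term over all genes, and separately over all rows, with two-sided p-values, Benjamini-Hochberg adjustment and a threshold of 0.05. Replicate numbers are not shared between groups. List genes were matched by symbol or RefSeq synonym, and those without a match were left out. Named genes are the members, up to 4 passing genes of each list by smallest p (or 2 as values where none passed), tissue markers and the 5 genes most correlated with Egr1 and Egr2. Genes outside this rule are Csf1r, Cd3e, Cd3d, Cd3g, Arg1 and those marked in the text. On simulated data with independent noise, the fit recovered 78% and 82% of log2 changes of -1 and 1. For changes of -2 and 2 it recovered 100% and 96%. The simulation held no effects shared by genes of an array, so it cannot speak for calls lost when an array is left out. The number of arrays limits the precision.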

Additional observations from a re-analysis of the deposited data

How the results depend on the processing

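No paired analysis was run, because the groups share no replicate numbers and nothing ties an array to one of the other group. Any pairing through littermates is unknown, and the fit ignores it. The alternatives were fixed with earlier results known, except those for the pairs of members, chosen after seeing the data. Egr2 stayed positive throughout, at 1.97 to 2.70 with each array left out, but missed the threshold on its brightest row (1.10), without moderation (2.35, adjusted p 0.106) and with B6-TGFbeta replicate 3 as its group's only array (2.38). In these 3 settings 0 members passed, and 0 to 1 passed with each array left out. Genes called over all genes numbered 617, 63 and 40 there, and 57 to 554 with arrays left out, against 1562. Member rows called fell from 3 to 0 without moderation, with replicate 3 alone and with any array left out (0 to 0). The 20 calls among 185 genes of the 7 pathway lists became 34 with array weights, 0 without moderation, 1 with replicate 3 alone and 0 to 10 with arrays left out. Egr3 changed sign on its brightest row (-0.22), without the dimmer 50% of rows (-0.041) and with replicate 3 alone (-0.063), Nab2 on its brightest row (-0.16) and with replicate 3 alone (-0.037), and Egr2 minus Egr1 on brightest rows (-0.029). The cause was not tested. Leaving out arrays also removes samples from the fit, and with replicate 3 alone the spread comes from CBAxB6-TGFbeta only.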

Other observations

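The CBAxB6-TGFbeta arrays did not order alike in the genes that accompany Egr2. Replicate 4 was highest for Egr2 (10.72), Egr1 (10.25), Ccl2 (9.44, against 8.32 and 8.40 in replicates 5 and 6) and Cd44 (9.31, against 8.75 and 8.35). The same array was lowest of the 3 for Il6, at 5.90 against 7.19 and 7.24, and for Arg1, an arginase of alternatively activated macrophages chosen after its values were seen, at 6.25 against 7.13 and 7.09. In B6-TGFbeta, Il6 stood at 3.81 to 4.61 and Arg1 at 5.86 to 6.35. The spread of Egr1 and Egr2 within the groups differed too, with SDs of 0.30 and 0.11 in B6-TGFbeta and 0.73 and 0.62 in CBAxB6-TGFbeta, each from 3 arrays. None of these within-group orders was tested.

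Wt1, the podocyte factor whose zinc fingers recognise a site close to that of EGR1, stood at 7.96 to 8.25 in B6-TGFbeta and 7.75 to 8.07 in CBAxB6-TGFbeta, with a log2 difference of -0.13 (SE 0.12, adjusted p 0.611 in limma). Wt1 was chosen after its value was seen.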
